A study of Mus musculus with 2 samples.

Results

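Genomic is the class that TALON, a program that sorts long reads into transcript models, gives to a model that overlaps a known gene but has neither the splice pattern of an annotated transcript nor a part of it. All models that carry this class in the deposited tables were taken, 11254 of 103386 models in replicate 1 and 9975 of 100292 in replicate 2, together 21229 of 203678. Of these, 10882 in replicate 1 and 9623 in replicate 2 lay in annotated genes and are described here. The 2 libraries are long-read RNA sequencing of adrenal glands from 10-day-old female B6CASTF1/J mice, offspring of C57BL/6J and CAST parents, and the labels name no treatment and no second group. Animal 03 is named in the library text of each replicate, whereas the biosample texts name 03 for replicate 1 and 04 for replicate 2, so it is not known whether the SD over n = 2 holds differences between animals. All tests below compare the reads of 2 libraries and not conditions. Coordinates are on mm10 and genes are those of GENCODE M21.

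The libraries held 593165 reads in replicate 1 and 772154 in replicate 2 outside spike-ins, and 0 reads of a gene allow a level of up to 5.06 CPM in replicate 1 and up to 3.89 CPM in replicate 2, which is 3 counts of the total. Counting error is all that these limits and the intervals below cover, since no molecular identifiers are stated and reads may copy the same molecule. The labelled tissue was checked with 5 marker genes of adrenal cortex, which summed to 16641 and 20497 CPM, and 5 of adrenal medulla, which summed to 4884 and 5413 CPM in replicates 1 and 2. Both libraries also held markers of other tissues: 4 fat genes summed to 8809 and 13471 CPM, 3 liver genes to 6378 and 1013 CPM, and 3 muscle genes to 7669 and 2318 CPM. The 3 kidney genes had 0 reads in replicate 1 and 387 reads in replicate 2. The part of these other cells in the results was not tested. In bulk samples, fewer cells of a type and less RNA per cell cannot be told apart.

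A mammalian gene is copied whole, its introns are spliced out, and its RNA is cut and given a poly(A) tail shortly after a signal in the last exon, most often AATAAA or ATTAAA. The last exon holds most of the 3′ untranslated region in the majority of coding genes. A read of only the last exon has no splice junction, so it carries no splice pattern to match. A read that runs over an exon border into an intron, or lies in an intron, covers RNA in which that intron is present.

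The sequences just before much used ends of Genomic models are shown because most reads of the class belong to models that end at an annotated transcript end. Each is the last 30 bases of an annotated transcript at which a deposited Genomic model ends, taken from the GENCODE M21 transcripts (mm10), 5′ to 3′ on the gene's strand, with a poly(A) signal, where the window holds one, in capitals. Read counts are those of the Genomic models ending there.
Apoe, chr7:19696267-19696296, minus strand, 1619 and 893 reads: ttgcttAATAAAgattctccgagcacattc
Cyp11a1, chr9:58026994-58027023, plus strand, 2312 and 0 reads: agggagttAATAAAcacttgaacactgagg
Slc25a5, chrX:36798778-36798807, plus strand, 567 and 1304 reads: aaattgaagaAATAAAaatacccaaaacca
Mrpl30, chr1:37898309-37898338, plus strand, 182 and 312 reads: ttctcATTAAAgtgtatgttcatccagtca
Ddx6, chr9:44640702-44640731, plus strand, 78 and 82 reads: ttatctcAATAAAagcccactggaacttca
Brd2, chr17:34112023-34112052, minus strand, 56 and 111 reads: taAATAAAgaaaatattattgaagttttga
Gabarapl1, chr6:129542317-129542346, plus strand, 228 and 0 reads: cttaccttaaaagtctacctggactcagaa
In the first 6 of these genes the signal ended between 14 and 22 bases before the transcript end, and the Gabarapl1 window held neither motif.

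Genomic models inside annotated genes took 40097 reads in replicate 1 and 36619 in replicate 2. That is 6.76% of the reads outside spike-ins in replicate 1 (95% exact Clopper-Pearson interval 6.70 to 6.82) and 4.74% in replicate 2 (4.70 to 4.79), a mean of 5.75 ± 1.43% (SD, n = 2). They were found in 8231 of the 16215 annotated genes with reads in replicate 1 and in 7557 of 16263 in replicate 2. Most were single blocks of genome without a splice, 97.2% of models in replicate 1 and 96.5% in replicate 2. A single read stood behind 55.1% of the models in replicate 1 and 55.4% in replicate 2. The 20 genes with most Genomic reads held 17.7% of the class reads in replicate 1 and 12.6% in replicate 2. Protein-coding genes held 93.9 and 93.6% of Genomic reads in replicates 1 and 2, against 97.04 and 97.14% of all reads in annotated genes.

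Most Genomic reads belonged to models wholly inside the last exon of their gene. For this count the exons of all annotated transcripts of a gene were merged, and each model was placed inside the last exon, inside another exon, across an exon border, inside introns, or past the annotated ends of the gene. Models inside the last exon took 63.7% of Genomic reads in replicate 1 (63.2 to 64.2) and 67.7% in replicate 2 (67.2 to 68.2), a mean of 65.7 ± 2.83% (SD, n = 2). Models across an exon border took 18.3 and 11.4%, models inside introns 8.74 and 8.47%, models inside other exons 4.56 and 5.96%, and models past the gene's ends 4.66 and 6.45%. Counted by model and not by read, introns weighed more: 2257 models (20.7%) in replicate 1 and 1721 (17.9%) in replicate 2 were intronic, while 5693 (52.3%) and 5174 (53.8%) lay in the last exon. The difference comes from depth per model, which was 1.55 and 1.80 reads inside introns and 4.49 and 4.79 reads inside the last exon.

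**Figure D1:**
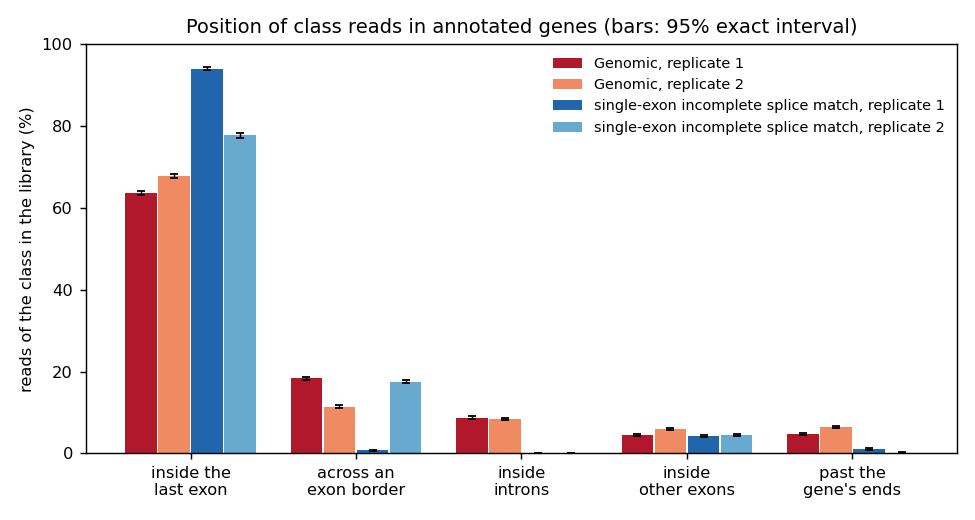
Share of the reads of each class (%, y axis) by position in the annotated gene (x axis) for Genomic models (red, replicates 1 and 2) and single-exon incomplete splice matches (blue, replicates 1 and 2), with 95% exact counting intervals. The last exon holds 63.7 and 67.7% of Genomic reads, and introns hold 8.74 and 8.47% of Genomic reads but 0.0577 and 0.0497% of the other class. The low intron share of the other class follows from its definition as pieces of annotated transcripts.

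The class most like it, single-exon incomplete splice matches, which TALON gives to a piece of an annotated transcript, took 17342 reads (2.92%) in replicate 1 and 24125 reads (3.12%) in replicate 2. Genomic models took a mean of 8.60 ± 0.192% of their reads from introns, against 0.0537 ± 0.00560% in incomplete splice matches (SD, n = 2 each), where 3 models in replicate 1 and 9 in replicate 2 were intronic. A piece of an annotated transcript lies in its exons, so the low intron share of incomplete splice matches follows from how the class is defined. The shares across exon borders averaged 14.9 ± 4.88% in Genomic models and 9.14 ± 11.9% in incomplete splice matches. In replicate 2, 4082 of the 4236 border reads of incomplete splice matches were those of Cyp11a1. Both classes were counted in the same 2 libraries, so their values are paired. With n = 2 in each class an exact permutation test that ignores the pairing cannot go below p = 0.333, and a paired one has only 2 pairs. These differences are therefore given as values.

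Most deposited Genomic models of the last exon ended at an annotated transcript end to the base. In replicates 1 and 2, 82.3 and 81.4% of last-exon models ended exactly at one, with 86.9 and 85.7% of last-exon reads. Within 100 bases of one lay 83.4 and 82.7% of last-exon models, so few ended near an annotated end but not at it. Whether the deposited ends were set to the annotation was not tested. Of border models 35.2 and 30.8% did so, and 53.2 and 53.5% of all Genomic models, against 87.7 and 87.4% of single-exon incomplete splice matches. The 5′ side was shorter than the exon: in genes with several exonic blocks, last-exon models covered a median 34.3 and 34.8% of the last exon, and 4.03 and 4.24% of them began within 10 bases of its start. The ends are those of the deposited model, under which overlapping reads are counted together, and not those of each read.

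The motifs AATAAA and ATTAAA were searched on the transcript strand alone in the last 40 bases before each distinct model end; they differ in 1 letter and cannot both start at the same base. AATAAA stood before 66.9 and 66.4% of distinct ends of Genomic models at an annotated end in replicates 1 and 2. It stood before 37.6 and 37.6% of Genomic ends inside an exon away from any annotated end, before 53.2 and 53.2% of the ends of annotated transcripts with reads, and in 2.49 and 2.48% of all windows of that length in the exons of the first group. With ATTAAA included the shares were 81.0 and 81.1%, 49.8 and 49.8%, and 65.7 and 65.7%. The ends of the first group are annotated transcript ends by choice, so their share describes those annotated ends and not where reads ended. A match is a description of the letters and not evidence of use.

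Model lengths differed by position. The median was 624 and 592 bases inside the last exon, 1878 and 1664 bases across exon borders, 602 and 359 bases inside introns, and 2208 and 2015 bases past the gene's ends, in replicates 1 and 2. The longest models had 9598 and 10669 bases. At the other extreme, 671 models with 3518 reads (8.77% of Genomic reads) in replicate 1 and 632 models with 3818 reads (10.4%) in replicate 2 were under 50 bases, and 397 and 379 models were 1 base long. Of these short models 79.9 and 79.7% ended exactly at an annotated transcript end, and 4 single-exon incomplete splice matches in each library were as short. Hsd3b1, an enzyme of steroid hormone synthesis, had a 3-base model with 372 reads in replicate 1. Rbp4, the carrier of retinol in blood, had a 2-base model with 217 reads in that library. Such lengths are below that of any read, so for these models the deposited coordinates do not give the extent of the reads.

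**Figure D2:**
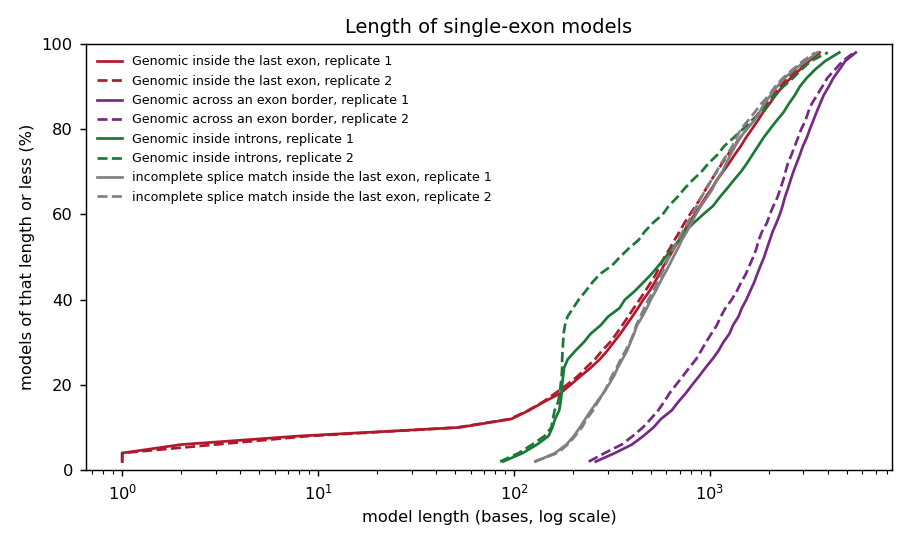
Cumulative share of single-exon models (%, y axis) up to a given length in bases (log x axis), by position and replicate, with single-exon incomplete splice matches of the last exon in grey. Medians of these single-exon models are 618.5 and 586.5 bases inside the last exon and 1890 and 1662 bases across borders; Genomic last-exon models reach down to 1 base, and the intron curves step up between 170 and 189 bases.

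A gene's Genomic share, the Genomic reads over all its reads, was compared in the 2162 genes that had 50 or more reads in both libraries. The median share was 1.29% in replicate 1 and 0.773% in replicate 2, and 902 and 927 genes had none. A share of at least 10% in both libraries was found in 169 genes (7.82%). A share of at least 50% in both was found in 21 genes, 0.971% of those compared, while 33 genes passed that level in replicate 1 and 33 in replicate 2. All 21 are protein coding, 15 had most of their Genomic reads inside the last exon in both libraries, and 19 had no single-exon incomplete splice match in either library. Their last exons ranged from 178 to 4444 bases with a median of 1079, against a median of 954 over all genes compared. Of 418 genes with 5 or more Genomic reads in both libraries, 307 had the last exon as main position in both. The count of 15 is therefore not shown to be particular to the 21. The counts of protein-coding genes and of genes without incomplete splice matches have no counterpart here over all genes compared. In none of the 21 did the share pass the test of a difference between libraries. These genes were chosen for a share of at least 50% in both libraries, which limits beforehand how far the shares can differ. The result is therefore no evidence of agreement between libraries.

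**Figure D3:**
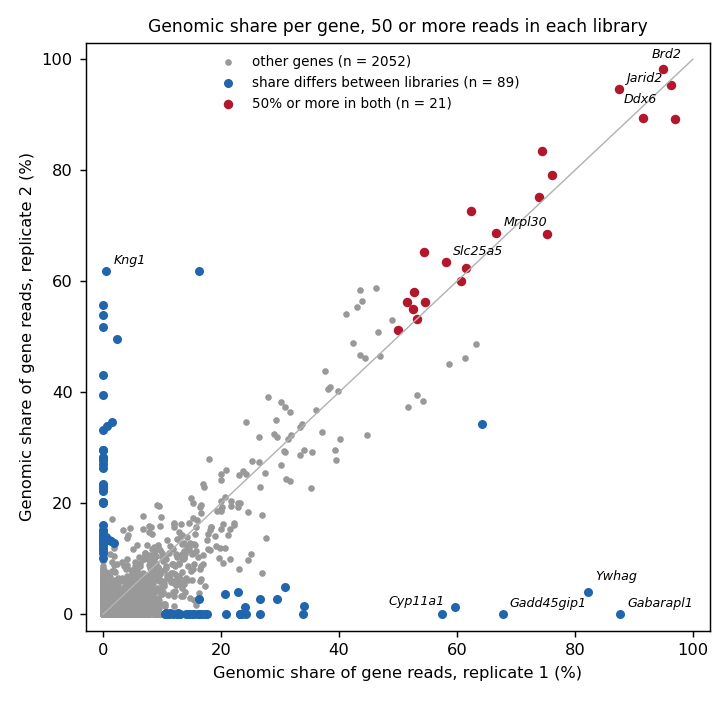
Genomic share of the reads of a gene (%) in replicate 1 (x axis) against replicate 2 (y axis), 1 point per gene with 50 or more reads in each library, with the line of equal shares. The 21 genes at 50% or more in both libraries (red) were chosen by that limit, which bounds their distance from the line. The 89 genes whose share differs by Fisher's exact test (blue) lie mostly along an axis, at or near 0 in 1 library.

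The 21 genes are given below by what they encode and not by rank. Among those for RNA and chromatin proteins, Ddx6, an RNA helicase of mRNA decay and storage, had 78 Genomic reads of 81 in replicate 1 (96.3%, interval 89.6 to 99.2) and 82 of 86 in replicate 2 (95.3%, 88.5 to 98.7). Brd2, a bromodomain protein that binds acetylated histones, had 56 of 59 (94.9%) and 111 of 113 (98.2%). In both genes all Genomic reads lay in the last exon and their models ended at the sequence shown above. Hdac7, a histone deacetylase, stood at 62.4 and 72.7%, and Snrnp70, a protein of the U1 splicing particle, at 73.8 and 75.3%. Jarid2, a cofactor of the Polycomb complex that methylates histone H3, stood at 87.5 and 94.6% and is the exception in position, since its Genomic reads are intronic.

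Among genes for receptors and cell structure, Esrra, an orphan nuclear receptor that drives mitochondrial genes, had 131 Genomic reads of 143 (91.6%) in replicate 1 and 179 of 200 (89.5%) in replicate 2. In replicate 1 its main model ended at the annotated gene end, and in replicate 2 it was a 216-base model that ran past that end, chr19:6910834-6911049. Adipor2, a receptor of adiponectin, stood at 74.4 and 83.5%. Tns1, which links actin to focal adhesions, stood at 96.9 and 89.3%, Kpnb1, a nuclear import receptor, at 75.3 and 68.6%, and Cavin1, a coat protein of caveolae, at 51.6 and 56.2%. Each pair of shares had overlapping intervals.

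Among genes for mitochondrial proteins, Slc25a5, the ADP/ATP carrier of the inner membrane, had 567 Genomic reads of 975 in replicate 1 (58.2%, 55.0 to 61.3) and 1304 of 2055 in replicate 2 (63.5%, 61.3 to 65.5), with an adjusted p of 0.0696 by Fisher's exact test. The shares were close but the models were not: in replicate 1 the reads were listed under a 3154-base model over 2 whole introns, chrX:36795654-36798807, and in replicate 2 under a 255-base model of the last exon, chrX:36798553-36798807. Both end at the same base. Mrpl30, a protein of the mitochondrial ribosome, had 182 of 273 (66.7%) and 312 of 454 (68.7%), in models of 214 and 174 bases in the last exon with the same 3′ end. Mrpl24 stood at 54.4 and 65.2%, and Atp5g2, a subunit of the ATP synthase ring, at 54.6 and 56.2%.

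The remaining genes of the 21 were Gm20388 at 76.1 and 79.2%, Fopnl at 61.5 and 62.4%, AC149090.1 at 60.7 and 60.1%, Polr2l, a small subunit of RNA polymerases, at 53.2 and 53.1%, Nnat at 52.7 and 58.0%, Wbp1 at 52.5 and 54.9%, and Desi1 with 26 of 52 reads in replicate 1 and 51.2% in replicate 2. The genes nearest to the limit inside it were Desi1, Cavin1, Wbp1, Nnat and Polr2l. Those nearest outside were Bex3 (49.1 and 53.0%), Fgfr2 (63.2 and 48.8%), Laptm4a (46.7 and 50.8%), Nisch (46.9 and 46.6%) and Ints3 (46.3 and 58.7%). The intervals of the genes on the 2 sides of the limit overlap, so the count of 21 depends on where the limit is set.

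**Figure D4:**
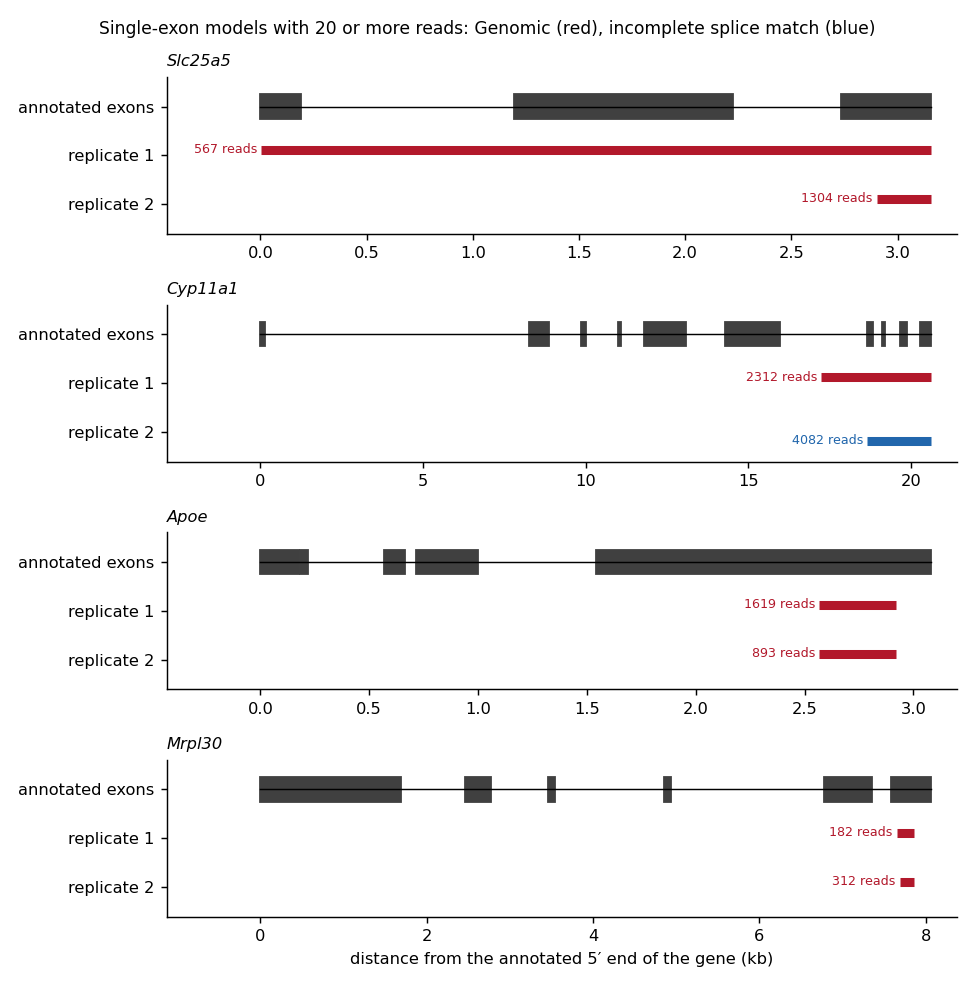
Single-exon models with 20 or more reads (Genomic red, incomplete splice match blue) below the merged annotated exons of 4 genes, by replicate, against the distance from the gene's annotated 5′ end in kb; numbers are reads. The Slc25a5 models share a 3′ end but span 3154 and 255 bases, the Cyp11a1 models have different classes, and the Apoe model is the same in both libraries.

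Several of the genes with most Genomic reads had a share below 50% that was close in the 2 libraries. Apoe, a carrier of lipids in blood that is also made in the adrenal cortex, had 1619 Genomic reads of 3646 in replicate 1 (44.4%) and 893 of 1932 in replicate 2 (46.2%). In both libraries they were listed under the same 354-base model in the last exon, chr7:19696267-19696620, which ends at an annotated transcript end upstream of the gene's own end at 19696109. Sparc, a matrix protein, had 166 of 1081 (15.4%) and 192 of 1519 (12.6%), most under an identical 887-base model. Ywhaq stood at 39.8 and 40.2%, Mrfap1 at 30.7 and 29.5%, Fads2, a desaturase of fatty acids, at 21.7 and 20.4%, and Ddx5, an RNA helicase, at 26.5 and 22.8%. Kcnk3, a potassium channel of the adrenal cortex, had 204 of 678 (30.1%) and 266 of 988 (26.9%). Of 418 genes that had 5 or more Genomic reads in both libraries, 360 (86.1%) had the same main position in both, and in 307 this was the last exon.

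In other genes the Genomic share was high in 1 library and near 0 in the other. By a two-sided Fisher's exact test per gene with Benjamini-Hochberg adjustment over the 2162 genes, with a gene called where the adjusted p was under 0.05 and the shares lay 10 points or more apart, the share differed in 89 genes (4.12%), higher in replicate 2 in 46 and in replicate 1 in 43. Gabarapl1, a member of the autophagy protein family of Atg8, had 229 Genomic reads of 261 in replicate 1 (87.7%) and 0 of 506 in replicate 2 (exact test, adjusted p = 2.2e-158). Gadd45gip1 stood at 67.7 and 0% (exact test, adjusted p = 5.2e-49), Ywhag at 82.3 and 3.92%, and Cdc34, a ubiquitin-conjugating enzyme, at 59.6 and 1.25%. The other way, Kng1, the liver's kininogen, stood at 0.482% in replicate 1 and 61.9% in replicate 2 (exact test, adjusted p = 3.1e-47), with Osgin1 at 0 and 55.8%, Pabpn1, a nuclear poly(A) binding protein, at 0 and 54.0%, Rtraf at 0 and 51.7%, and Bfar at 2.35 and 49.5%. Of the 89 genes 64 had no Genomic read at all in 1 library.

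In most of these genes the library with the low Genomic share listed single-exon incomplete splice matches. Gabarapl1 had 0 such reads in replicate 1 and 441 in replicate 2, and the 2 classes together made 87.7 and 87.2% of its reads. Kng1 had 175 in replicate 1 and 0 in replicate 2. In 86 of the 89 genes the incomplete splice match share differed in the opposite direction, in 71 of them by at least 10 points. Over these 89 genes the median absolute difference between libraries was 17.6 points for the Genomic share and 4.49 points for the 2 classes pooled. The 89 were chosen for a Genomic difference of at least 10 points, which raises the first median and favours a lower second one. The counts of 86 and 71 also cover only these genes and have no counterpart here over all genes compared. With the classes pooled, 3 of the 89 genes were still called, and 6 of the 2162 genes (0.278%) in all. Among 344 genes with a pooled share of at least 10% in both libraries, 171 were mostly Genomic in both, 87 mostly incomplete splice match in both, and 86 mostly the one class in 1 library and the other class in the other.

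**Figure D5:**
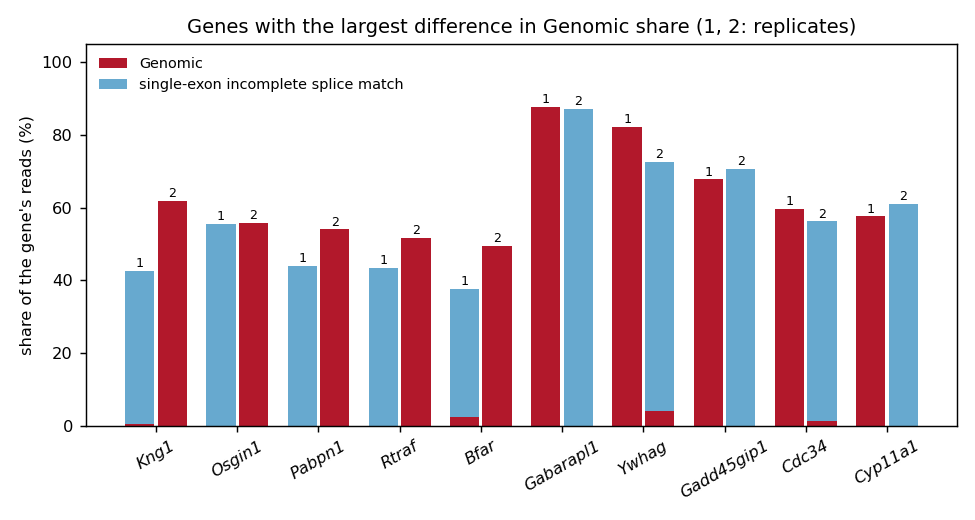
Share of the reads of a gene (%, y axis) listed as Genomic (red) and as single-exon incomplete splice match (blue, stacked on it) for the 10 called genes with the largest difference, with replicate 1 left and replicate 2 right in each pair. Gabarapl1 totals 87.7 and 87.2% under different classes, and Cyp11a1 totals 57.6 and 61.1%.

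Cyp11a1, the enzyme of the first step of steroid synthesis, had the most Genomic reads of the 10 genes plotted, 2313 of 4019 in replicate 1 (57.6%) and 0 of 6682 in replicate 2. In replicate 2, 4082 reads were single-exon incomplete splice matches, which brings the pooled shares to 57.6 and 61.1%. The main Genomic model of replicate 1, chr9:58023657-58027023 with 2312 reads, covered 3 whole introns and the last exon. Since overlapping reads share 1 model, the number of reads that held those introns cannot be told from the deposited files.

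Over the 17 genes of steroid synthesis, which include Cyp11a1, the summed Genomic reads were 2984 of 11319 in replicate 1 (26.4%) and 235 of 18593 in replicate 2 (1.26%), beside 4.91 and 3.23% over all genes compared. Cyp11a1 supplied 2313 of the 2984 reads, and without it the list held 9.19 and 1.97%. With single-exon incomplete splice matches added the whole list held 26.9% in each library. Over the 15 members with 50 reads in each library the median share was 4.12 and 0%, beside 1.29 and 0.773% over all genes compared, and none reached 10% in both libraries. The share was called different in 4 of the 15, beside 4.12% of all genes compared: Cyp11a1, Hsd3b1 (23.5 and 0%), Scarb1, the receptor that takes up cholesterol esters (16.2 and 0%), and Nr5a1, the transcription factor of steroid-producing cells (0 and 20.2%). With single-exon incomplete splice matches added, none of the 4 was called: the pooled shares of Cyp11a1 lay under 10 points apart, and the adjusted p of Hsd3b1, Scarb1 and Nr5a1 was 0.0654, 0.710 and 0.602 by the same exact test. Cyp21a1, the 21-hydroxylase, stood at 4.12 and 0%, and Star, which moves cholesterol into mitochondria, at 15.1 and 6.18%, both below the limit of 10 points. Cyp11b1, the 11-beta-hydroxylase, kept 4.41 and 4.64% with 56 and 85 reads.

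Over all genes compared, as given above, the median share was 1.29 and 0.773%, 4.12% were called and 7.82% had at least 10% in both libraries. Among 8 chromaffin genes with 50 reads in each library the median share was 1.85 and 0%, and 1 was called, Pnmt, which makes adrenaline (21 of 191 reads, and 0 of 433). Th, the rate-limiting enzyme of catecholamine synthesis, stood at 2.14 and 1.66%, and Chga, a core protein of secretory granules, at 0 in both. Among 14 splicing regulators and genes known for retained introns the median was 3.05 and 1.79%, 2 had at least 10% in both libraries (Ddx5, and Hnrnpdl at 21.7 and 19.4%), and 1 was called, Srsf2 (0 and 10.0%). Of 3 listed long noncoding RNAs with 50 reads in each library, H19 stood at 7.05 and 10.6%, Neat1 at 0 and 0.877%, and Meg3 was called, at 16.3 and 61.8%. With single-exon incomplete splice matches added, Pnmt, Srsf2 and Meg3 were no longer called (exact test, adjusted p = 0.815, 0.710 and 0.944). No member of the 4 lists reached 50% in both libraries.

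Intronic Genomic models were many and shallow. The single-exon ones numbered 2220 in 1697 genes with 3465 reads in replicate 1 and 1691 in 1387 genes with 3061 reads in replicate 2, and 80.3 and 77.9% rested on 1 read. The introns that held them had a median of 20661 and 16976 bases, and 59.5 and 58.5% of the models lay in the longest intron of their gene. Longer introns offer more bases for a model to lie in, and no value over all introns is given here. Neither value is therefore shown to be particular to the class. An exon of another gene on the same strand overlapped 5.27 and 5.91% of them, which held 11.3 and 15.4% of intronic reads. Genes whose reads were all Genomic numbered 1439 of 16215 in replicate 1 and 1265 of 16263 in replicate 2, with 469 in both. These genes held 35.3 and 36.5% of all intronic models. Their reads were few, 3526 and 3398 in all, and only 40 and 51 of them had 10 or more reads. A share of all reads therefore says little for most of them.

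Jarid2 held the deepest intronic model in each library. In replicate 1 it was chr13:44869599-44869822 with 62 of 72 gene reads, and in replicate 2 chr13:44869572-44869822 with 104 of 111, on the plus strand with the same 3′ end and no exon of another gene. Nckap5 had 32 reads at chr1:126708474-126708557 and 35 reads at chr1:126708474-126708562, on the minus strand and again with 1 shared 3′ end. Podn had the identical model in both libraries, chr4:108043839-108044550, with 34 and 74 reads, over an exon of Scp2, which carries sterols, on the same strand. Other deep models also lay on exons of other genes: AC154200.1 (51 reads, replicate 1) on the pseudogene Oaz1-ps, Gm49450 (40 reads, replicate 1) on Tuba1a, Gm45233 (74 reads, replicate 2) on Etfb, Gm49325 (24 and 42 reads) on Sumo3, and Lyrm4 (24 reads, replicate 2) on the pseudogene Tmed10-ps. To which of the overlapping genes these reads belong is uncertain.

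The other mainly intronic gene of the 21, Gm20388, is annotated from chr8:119910841 to 124345722 and spans other genes. Its intronic reads were spread over 45 models with 86 reads in replicate 1 and 31 models with 57 reads in replicate 2, of which 10 and 13 reads lay on exons of 7 other genes in each library. Fgfr2, a growth factor receptor just outside the limit, had 31 intronic reads in 17 models and 37 in 12 models, of which 13 and 17 lay on exons of other genes such as Ctbp2.

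Models across an exon border had a median length above those inside the last exon and inside introns. Of 1614 single-exon border models in replicate 1 and 1457 in replicate 2, 885 and 810 held no whole intron, 460 and 420 held 1, and 269 and 227 held more, up to 14 and 10. The last group held 58.2% of border reads in replicate 1, largely those of Cyp11a1, and 22.0% in replicate 2. Next in replicate 1 were Slc25a5 and Gnas, the stimulatory G protein alpha subunit, whose 3416-base model over 6 whole introns had 177 of 1720 gene reads. Among all border models of replicate 2, those with most reads were of Pcx, the pyruvate carboxylase (89 reads), Cyp11b1 (85), Mrpl51 (73) and Maf1 (58). The first 3 held 1 whole intron each, and that of Maf1 held 4. The border model of Cyp11b1 in replicate 2 and its last-exon model in replicate 1 ended at the same base.

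That shared base of Cyp11b1 is not an annotated transcript end, and it precedes a stretch rich in A. A primer of T can bind such a stretch as it binds a poly(A) tail; whether it did so here was not tested. Below, the 10 bases up to the model end are in lower case and the 20 transcript bases after it in capitals, from the GENCODE M21 transcripts, 5′ to 3′.
Cyp11b1, chr15:74834567-74834596, minus strand, 56 and 85 reads: tcacaaacatCTAAATAAATAGCAAAGAAA
Zbtb7a, chr10:81151602-81151631, plus strand, 31 and 32 reads: ggctgaaaggAAAAATAGAAAAAAAACAAA
Klf9, chr19:23166462-23166491, plus strand, 32 and 0 reads: tttcatagttAAAAAACAAAAAAAGAAAAC
Of these 20 bases 13 are A after the Cyp11b1 end and 17 after those of Zbtb7a and Klf9.

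At least 12 A in the 20 bases were found after 181 of 1450 Genomic models in replicate 1 (12.5%, interval 10.8 to 14.3) and after 173 of 1374 in replicate 2 (12.6%, 10.9 to 14.5). These are the models that do not end at an annotated transcript end and have 20 further bases inside an annotated exon. The same was true of 15 of 223 single-exon incomplete splice matches in replicate 1 (6.73%) and 23 of 203 in replicate 2 (11.3%), and of 1.77 and 1.70% of all windows of that length in the exons that held the Genomic ends. Only 29.5 and 32.2% of the Genomic models away from an annotated end could be read in this way, and of intronic models 1.31 and 1.66%, so the count says nothing of introns.

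Spliced models were rare in the class, 301 with 453 reads in replicate 1 and 336 with 576 reads in replicate 2. None of their 402 and 459 introns was annotated, and 33 models had identical introns in both libraries. The deepest lay at small nucleolar RNA genes, Snord104 (38 and 81 reads, a 192-base intron) and Snora57 (31 and 39 reads), whose short annotated RNAs guide the modification of other RNAs. In both, the annotated small RNA lies wholly inside the intron of the model. The exons of these models therefore hold no base of it: they lie on either side. Of the introns that lay inside a single annotated exon, 74 of 92 in replicate 1 (80.4%, 70.9 to 88.0) and 73 of 90 in replicate 2 (81.1%, 71.5 to 88.6) began with GT and ended with AG, the letters of most introns. The edges of 2 such gaps follow, with the first and last 10 bases of the gap in capitals and the exon bases that stay in lower case, 5′ to 3′.
Fndc10 gap start: gcacccagggGTGAGTGTCC
Fndc10 gap end: CTCACCCCAGcgaccgtgat
Gas1 gap start: gaacacccgcCTTTACCAGC
Gas1 gap end: GCGGCCCCGCggccgccacc
The Fndc10 gap, chr4:155695909-155696358 on the plus strand, had 11 and 30 reads, 450 bases and GT and AG at its edges. The Gas1 gap, chr13:60176879-60176970 on the minus strand, had 9 and 7 reads and began with CT and ended with GC. A gap whose edges repeat can be shifted without changing the resulting sequence, by 1 base for Fndc10 and by 5 bases for Gas1.

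Recurrence of models between libraries was counted as an overlap of at least 1 base. A Genomic model of the other library on the same strand in the same gene overlapped 46.5% of models with 65.5% of reads in replicate 1, and 52.2% of models with 74.6% of reads in replicate 2. The share of models was 58.0 and 63.8% inside the last exon and 25.2 and 31.9% inside introns. Of the overlapping models 67.8 and 68.1% had the same 3′ end to the base, and 31.2 and 31.3% the same 5′ end. Models with a shared end are a part of the overlapping ones and so cannot outnumber them. How often models placed freely within a gene would overlap was not tested. With an overlap of 50% of each model required, 27.5 and 31.1% of models recurred.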

How the data were processed

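For each of the 2 libraries the authors deposited raw counts (whole numbers of reads for each model, not normalized) and an annotation file that places each model. Per the file headers and the deposit's notes, models are on mm10 with GENCODE M21 and come from TALON. Aligner and versions: not given in the sources used here. Depth was 593165 and 772154 reads outside spike-ins, which were left out. Class and number of exons were taken as deposited.

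Gene counts were sums over models. Gene borders and exons came from annotated transcripts, because some deposited gene lines follow the models of a library. The genome was not used. Bases after a model end and around gaps were read from GENCODE M21 transcripts by exon coordinates (141767 of 141862 transcripts had a sequence), so the count of A-rich ends covers only model ends with 20 further exon bases.

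Shares have exact Clopper-Pearson intervals at 95%. Gene shares were compared by two-sided Fisher's exact test with Benjamini-Hochberg adjustment (scipy 1.17.1). On simulated reads of 2162 genes with 50 changed genes per size, the test called 24% of genes changed by 10 points, 90% at 20 points and 100% at 50 points, and 1 unchanged gene. The simulated reads were independent binomial draws, so a whole model taking another class in the other library was not simulated. These rates therefore do not give the error of the calls in the deposited libraries. Named genes are the 20 with most Genomic reads, the 20 with the highest lower share, the 5 called in each direction with the largest difference, 5 on each side of the 50% limit, the deepest intronic (10 per library) and spliced (5 per library) models, and list members; deep border and short models, Fndc10, Gas1 and genes of printed sequences were chosen after their values were seen. The members and lists were chosen with earlier results of these data known. Some items under this rule are not reported here. Alternatives changed the exons, read minimum, share and difference limits, the A count and the overlap.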

Additional observations from a re-analysis of the deposited data

Results flagged for a closer look

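Genomic models at loci outside annotated genes were used in no comparison above. They held 800 reads in 371 models in replicate 1, 1.88% of the reads of such loci (95% exact interval 1.752 to 2.012), and 829 reads in 352 models in replicate 2, 2.10% (1.96 to 2.25). The limit that a count of 0 allows (3 counts) is for a single gene or model, so these sums over many listed models cannot be judged by it. Of the 800 and 829 reads, 716 and 671 lay at loci antisense to annotated genes and 84 and 158 at intergenic loci, and 99 and 113 models were spliced. The model with most reads had 36 in replicate 1 and 41 in replicate 2.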

How the results depend on the processing

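The Genomic share of reads and the share across exon borders moved by less than the SD of the 2 libraries under each alternative run. Without replicate 1 or 2 they were 4.74 and 6.76%, and 11.4 and 18.3%. With 2 libraries, leaving 1 out always moves the mean by less than that SD, so these values are no check of stability. For the border share the SD was wide, 4.88 points. The share inside the last exon, 65.7%, was 69.7% with exons of protein-coding transcripts alone, 70.3% with the last exon of any transcript, 53.0% by models and 69.8% with models of 2 or more reads. The share inside introns, 8.60%, was 4.05% with exons of transcripts with reads in the library (which drops genes with no such transcript), 6.63% with protein-coding exons, 19.3% by models, 5.28% with models of 2 or more reads, 9.38% with models of 50 bases or more and 8.87% without Cyp11a1. The 21 genes of high share became 67 at 20 reads, 7 at 100 reads, 54 at a share of 30%, 3 without last-exon reads, 39 with single-exon incomplete splice matches added, and 33 without either replicate. The 89 genes with a different share became 37 at 100 reads, 158 with no minimum difference, 43 at 20 points and 6 with the 2 classes pooled, a setting chosen after seeing the data. Pooled, the differences (replicate 2 minus 1) of Gadd45gip1 and Cyp11a1 turned to 2.90 points (adjusted p = 1.0, Fisher's exact test) and 3.51 points (adjusted p = 0.0472), those of Nr5a1 and Srsf2 to -9.01 and -4.85 points (adjusted p = 0.602 and 0.710, same exact test), and the other 8 genes of largest difference, Hsd3b1, Scarb1, Pnmt and Meg3 lost their call. A-rich ends, 12.5%, were 17.2% at 10 A, 10.3% at 14 A, 19.8% at 6 A of the first 10 bases and 12.1% by reads. Models shared between libraries, 49.3%, were 29.3% at an overlap of 50% of each. The causes were not tested. No paired analysis between groups was possible because the labels give 1 group, and the test between libraries has no value with a library left out. Of intronic models 80.6 and 78.0% rest on 1 read, against 42.2 and 44.8% inside the last exon.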

Other observations

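Intronic Genomic models piled up at 1 length. Of the single-exon ones, 276 of 2220 in replicate 1 (12.4%) and 330 of 1691 in replicate 2 (19.5%) were 170 to 189 bases long, against 47 and 50 that were 190 to 209 bases long. They lay in 268 and 319 genes on 20 chromosomes and held 394 and 558 reads. The range was chosen after seeing the lengths. Inside the last exon 1.65 and 1.78% of Genomic models had that length, and across exon borders 4 and 5 models did. Outside the class it was shared by 18.3 and 23.7% of single-exon intergenic models, 3.37 and 4.45% of antisense models and 1.98 and 2.23% of incomplete splice matches. The sequence of these introns was not used here.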
